A study of Mus musculus with 6 samples.

Results

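The genes described here are 10 members of the retinoid pathway: 5 dehydrogenases (Adh1, Adh5, Rdh10, Rdh11 and Dhrs3), the binding protein gene Crabp2 and 4 nuclear receptor genes (Rara, Rarg, Rxra and Rxrb). They were chosen by gene symbol with the low level of Adh1 in one genotype already known, and all 10 were found among the 23393 named rows of the table. RNA was measured in mouse naive CD4 T cells cultured for 2 days, with CD3 and CD28 stimulated by plate-bound antibodies and IL-6, IL-1b and IL-23 added. The group S1S3 carried Stim1fl/fl, Stat3CSTOPfl/fl and CD4-Cre, and the group Stat3C carried Stat3CSTOPfl/fl and CD4-Cre, both on C57BL/6, with 3 libraries in each group. Stat3C is a constitutively active form of STAT3 that both groups express once Cre has removed a stop cassette, so no group had normal STAT3 alone. Cre driven by the Cd4 promoter acts in the thymus before CD4 and CD8 cells part, so alleles were changed in all conventional T cells and not in Th17 cells alone. STIM1 is the sensor that opens store-operated calcium channels when calcium stores empty.

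Vitamin A reaches cells as retinol. Alcohol and short-chain dehydrogenases convert retinol and retinal into each other, aldehyde dehydrogenases of the ALDH1A family oxidise retinal to retinoic acid, and CYP26 enzymes break retinoic acid down. Retinoic acid binds RAR receptors, which act on DNA as pairs with RXR receptors, and in T cells it is known to favour regulatory over Th17 differentiation and to induce gut-homing receptors.

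All values are the authors' read counts per gene after scaling by library size factors, called normalised counts below, with means given ± SD over 3 libraries. Reads recovered from them came to 16044623 to 22567296 in the S1S3 libraries and 23135142 to 51444666 in the Stat3C libraries. A value of 0 allows up to 3 reads, or 1.30 to 4.11 normalised counts depending on the library, for counting error alone. Stim1 stood at 811, 794 and 687 in S1S3 libraries, against 1999, 1969 and 1931 in Stat3C libraries (log2 -1.37, limma adjusted p = 0.000287), and the part of the gene that Cre removes is not told by this count. Stat3C replicate 2 held the lowest Stat3C value of 6 of the 10 members, and Stat3C replicate 1 held the highest value of 6. These counts alone do not set replicate 2 apart, but it also held the highest myeloid marker sum given below. Differences are S1S3 minus Stat3C on the log2(value + 1) scale, which understates changes at low counts, and no p-value is given for any of the 10 members because the same contrast chose them. The labels do not say whether the libraries of a group came from separate mice, so p-values measure only the spread between these libraries, which may be technical.

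The start regions of Adh1 and Adh5 are shown because these neighbouring genes, both on the plus strand of chromosome 3, were lower in S1S3 by very different amounts. The windows run from 250 bases before to 50 bases after a RefSeq start (GRCm38.p6), chr3:138277335-138277634 for Adh1 and chr3:138442843-138443142 for Adh5, and capitals mark each CG dinucleotide.
Adh1: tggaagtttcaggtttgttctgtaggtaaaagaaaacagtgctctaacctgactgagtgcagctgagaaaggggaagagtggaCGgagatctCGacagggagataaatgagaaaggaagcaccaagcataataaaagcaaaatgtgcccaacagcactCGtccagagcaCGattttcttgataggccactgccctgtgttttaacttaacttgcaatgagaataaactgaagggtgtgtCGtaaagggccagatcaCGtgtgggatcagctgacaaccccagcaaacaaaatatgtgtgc
Adh5: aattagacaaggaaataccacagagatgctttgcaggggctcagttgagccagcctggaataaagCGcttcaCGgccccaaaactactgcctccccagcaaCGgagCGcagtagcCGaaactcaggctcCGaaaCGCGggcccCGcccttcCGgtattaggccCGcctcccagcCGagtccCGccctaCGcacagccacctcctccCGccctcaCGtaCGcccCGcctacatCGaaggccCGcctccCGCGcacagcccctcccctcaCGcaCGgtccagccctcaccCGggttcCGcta
The Adh1 window held 6 CG dinucleotides and 45.3% G or C, and the Adh5 window held 26 and 65.0%, where the median of 32851 such windows was 7 and 52.7%. The NFAT core GGAAA, searched on both strands, was absent from the Adh1 window and present 1 time in the Adh5 window, and 61.3% of all windows held it. The receptor core motif AGGTCA and its variant forms (AGTTCA, then GGGTCA, then GGTTCA), searched on both strands with overlaps counted, were in neither window, and 43.7% of all windows held at least 1 of them. The RefSeq start of Adh1 used here lies 16.6 kb inside the GENCODE gene.

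A start of Rara is shown as the window with the most receptor core motifs among the 18 windows of 8 members. It lies on the plus strand at chr11:98939461-98939760, and capitals mark the 4 matches.
Rara: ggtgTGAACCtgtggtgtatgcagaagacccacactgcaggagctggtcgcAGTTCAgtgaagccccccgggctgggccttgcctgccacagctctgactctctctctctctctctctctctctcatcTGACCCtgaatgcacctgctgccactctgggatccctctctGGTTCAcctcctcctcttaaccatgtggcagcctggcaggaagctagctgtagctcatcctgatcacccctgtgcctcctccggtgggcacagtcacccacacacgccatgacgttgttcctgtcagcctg
Of all windows, 0.581% held 4 or more matches, but this window was picked as the highest of 18, so that share does not measure how unusual it is. Of the 18 windows, 6 held at least 1 match, where 43.7% of all windows did. A direct repeat of the core motif with a spacer of 1, 2 or 5 bases was found in 0 of the 18 windows, where 0.222%, 0.268% and 0.0974% of all windows held one. The count per gene does not tell which of the starts of Rara the cells used.

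Adh1, the class I alcohol dehydrogenase that oxidises retinol and ethanol, was 10.2-fold lower in the mean of S1S3 than in that of Stat3C. Its normalised counts were 15.1, 14.0 and 15.9 in S1S3 libraries, from 11, 13 and 16 reads, against 153, 171 and 133 in Stat3C libraries, from 354, 339 and 137 reads. The S1S3 values lay close together and far under the lowest Stat3C value. The log2 difference was -3.26 (SE 0.22), the 27th lowest of 11947 genes tested. Leaving out any 1 library gave -3.35 to -3.17. In GENCODE the gene (ENSMUSG00000074207.10, chromosome 3, 138260991 to 138290698, plus strand) shares exon positions with the antisense gene Gm16559, which was not analysed here, and reads of the pair cannot be told apart because the labels name no counting strand.

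Adh5 (chromosome 3, 138443093 to 138455499, plus strand), the class III enzyme that oxidises glutathione-bound formaldehyde and, weakly, retinol, was the most abundant member. It stood at 3163, 3302 and 3464 normalised counts in S1S3 libraries, against 4359, 4139 and 4293 in Stat3C libraries. All S1S3 values were lower than all Stat3C values, by a log2 difference of -0.37 (SE 0.05). Per kilobase of exon, Adh1 made up 1.08% ± 0.0648 of the summed Adh1 and Adh5 level in S1S3, against 7.97% ± 1.06 in Stat3C, with no overlap between the groups.

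**Figure D1:**
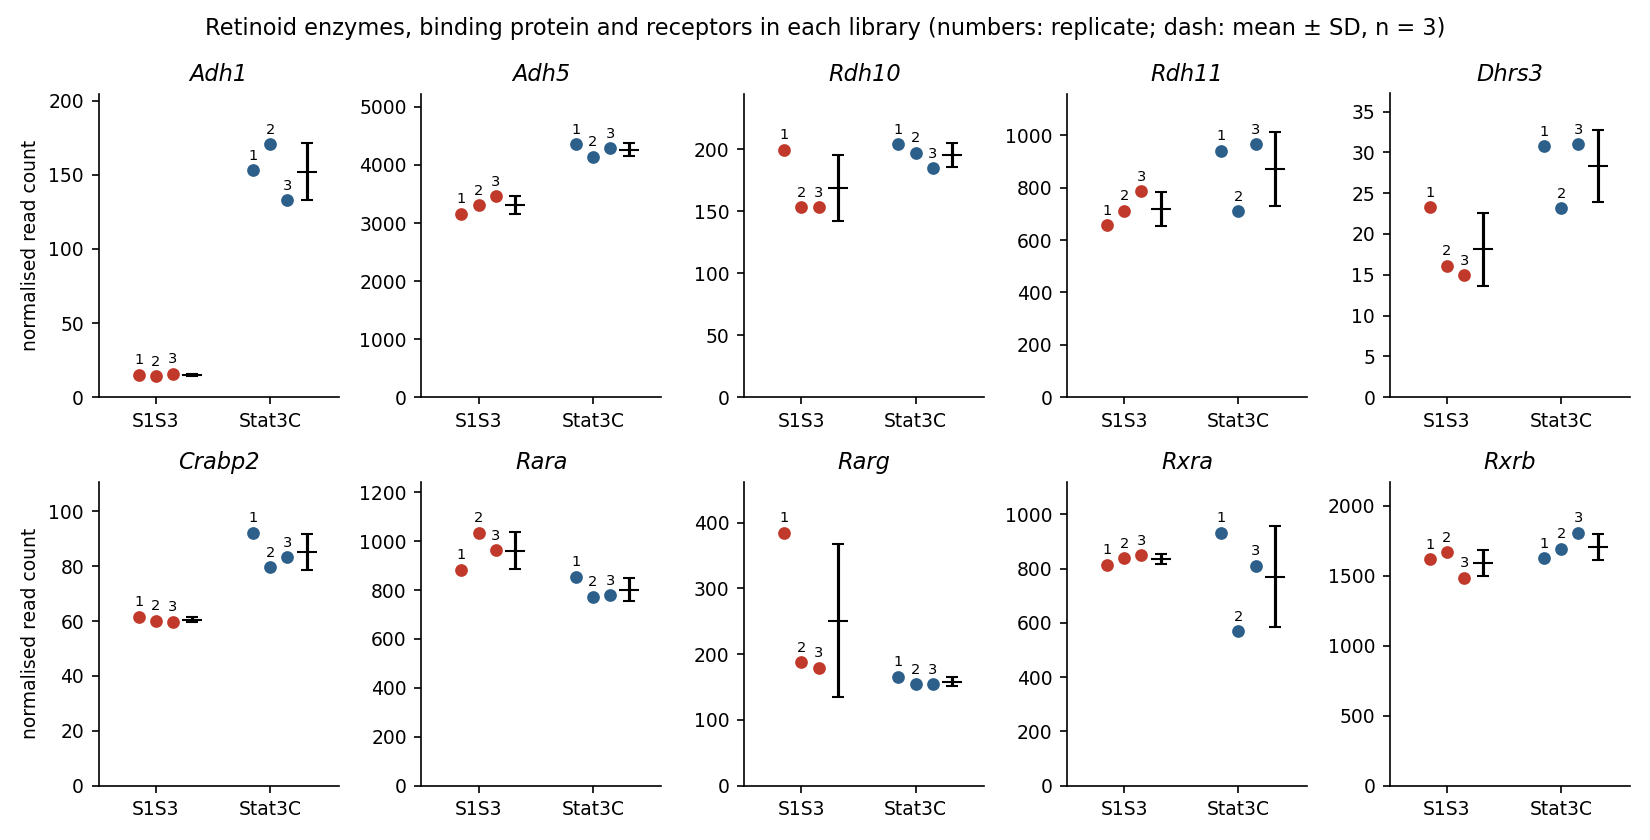
Normalised read count (vertical axes, each from 0) of the 10 members in the 3 S1S3 (red) and 3 Stat3C (blue) libraries, with replicate numbers and, as dashes with bars, the mean ± SD. Adh1 sits at 14.0 to 15.9 in S1S3 and 133 to 171 in Stat3C, and Rarg in S1S3 replicate 1, at 385, sits far above its other libraries.

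Of the short-chain enzymes, Rdh10 (chromosome 1, 16105774 to 16133734, plus strand), the main oxidase of retinol to retinal in the mouse embryo, stood at 200, 154 and 153 normalised counts in S1S3 libraries, against 204, 197 and 185 in Stat3C libraries. The groups overlapped through S1S3 replicate 1, and the log2 difference was -0.22 (SE 0.15), or -0.35 without that library. Rdh11 (chromosome 12, 79174337 to 79192293, minus strand), a retinal reductase of the endoplasmic reticulum, stood at 657, 712 and 787 in S1S3 libraries, against 942, 710 and 967 in Stat3C libraries. Its groups overlapped only through Stat3C replicate 2, and the log2 difference was -0.27 (SE 0.13), or -0.41 without that library. Dhrs3 (chromosome 4, 144892827 to 144928209, plus strand), which turns retinal back into retinol and is itself induced by retinoic acid in many cells, was near the lower end of what was measured, at 23.3, 16.1 and 14.9 in S1S3 libraries, against 30.7, 23.2 and 31.0 in Stat3C libraries. Here S1S3 replicate 1 and Stat3C replicate 2 nearly coincided, and the log2 difference of -0.63 had an SE of 0.35. Per kilobase of exon, Dhrs3 stood at 15.1% ± 1.36 of the Rdh10 level in S1S3, against 20.6% ± 3.63 in Stat3C. The ranges did not overlap but nearly met, at 16.55% in S1S3 replicate 1 and 16.68% in Stat3C replicate 2. Behind these values were 15 to 17 reads of Dhrs3 in S1S3 libraries and 32 to 71 in Stat3C libraries.

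Crabp2 (chromosome 3, 87948666 to 87953376, plus strand), which carries retinoic acid to its receptors in the nucleus, stood at 61.6, 60.1 and 59.7 normalised counts in S1S3 libraries, against 92.2, 79.6 and 83.3 in Stat3C libraries. The S1S3 values were nearly equal and all lower than the Stat3C values, by a log2 difference of -0.48 (SE 0.18). It stayed between -0.53 and -0.42 with any 1 library left out.

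Among the receptors the differences were small or uneven. Rara (chromosome 11, 98927818 to 98974942, plus strand), the RAR best known from CD4 T cells, stood at 883, 1035 and 963 normalised counts in S1S3 libraries, against 855, 774 and 778 in Stat3C libraries. The groups were separate but close, with a log2 difference of 0.26 (SE 0.08). Rarg (chromosome 15, 102234938 to 102257517, minus strand), another RAR, stood at 385, 188 and 179 in S1S3 libraries, against 166, 155 and 154 in Stat3C libraries. S1S3 replicate 1 alone lay far above the rest, and the log2 difference of 0.57 (SE 0.27) was 0.21 without it. Rxra (chromosome 2, 27676440 to 27762957, plus strand), a partner of RAR and of many other nuclear receptors, stood at 815, 839 and 850 in S1S3 libraries, against 932, 569 and 810 in Stat3C libraries. Its low value in Stat3C replicate 2 set the sign: the log2 difference was 0.14 (SE 0.16) with that library and -0.06 without it. Rxrb (chromosome 17, 34031812 to 34038399, plus strand), the more abundant RXR, stood at 1619, 1669 and 1485 in S1S3 libraries, against 1623, 1692 and 1807 in Stat3C libraries, with overlapping groups and a log2 difference of -0.10 (SE 0.07).

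The balance of the receptors, per kilobase of exon, put the summed Rara and Rarg level at 52.6%, 49.0% and 49.6% of the summed Rxra and Rxrb level in S1S3 libraries, against 40.5%, 40.3% and 35.5% in Stat3C libraries. These ranges did not overlap. Rarg made up 30.9%, 15.7% and 16.0% of the summed RAR level in S1S3 libraries, against 16.6%, 17.0% and 16.9% in Stat3C libraries, so that S1S3 replicate 1 alone was high and the other S1S3 libraries were lowest. Rxra made up 27.7% ± 1.51 of the summed RXR level in S1S3, against 24.6% ± 4.90 in Stat3C, with overlap. The other members of both families, Rarb and Rxrg, were at 0 in every library but 1 (Rxrg in Stat3C replicate 3, at 0.969).

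**Figure D2:**
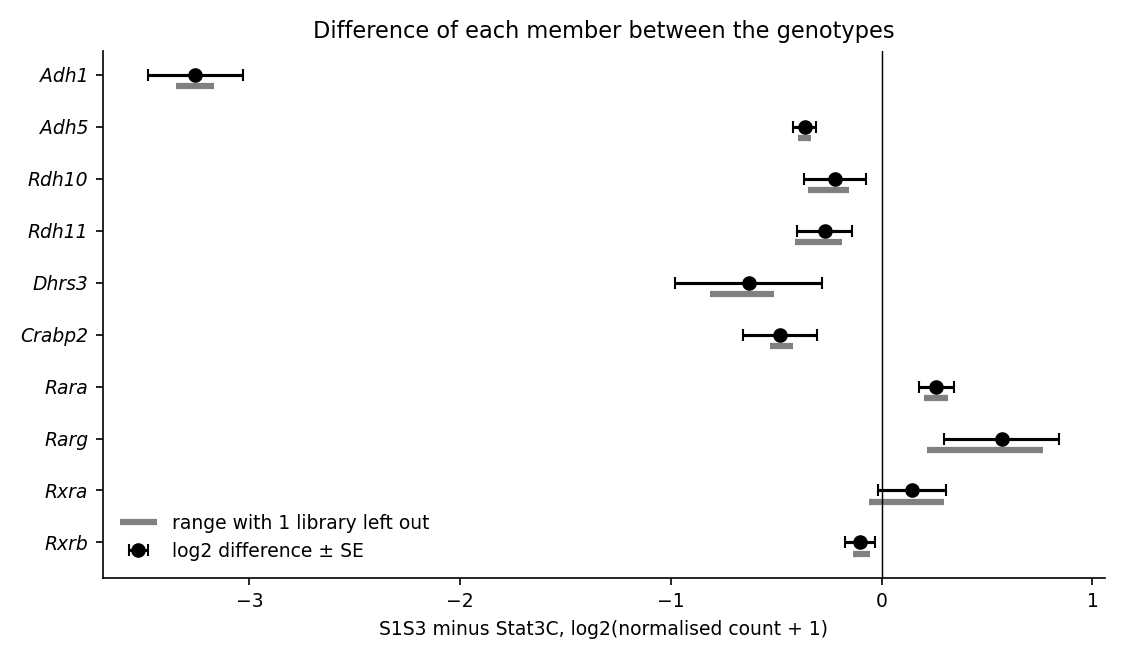
S1S3 minus Stat3C difference of each member on the log2(normalised count + 1) scale (horizontal axis), with dots and bars for the estimate ± SE from 6 libraries and grey bars for the range when 1 library is left out. Adh1 lies at -3.26 and every other member between -0.63 and 0.57, and the grey bar of Rxra crosses 0.

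Per kilobase of exon, the order in Stat3C ran from Adh5 (788 ± 20.9 normalised counts per kilobase) through Rxrb (430 ± 23.4), Rdh11 (253 ± 41.1), Rara (184 ± 10.5), Rxra (141 ± 33.8), Adh1 (68.2 ± 8.51), Crabp2 (64.3 ± 4.91), Rdh10 (47.0 ± 2.35) and Rarg (37.1 ± 1.55) to Dhrs3 (9.67 ± 1.52). Only the neighbours Adh1 and Crabp2 had overlapping ranges there. In S1S3, Adh1 stood at 6.71 ± 0.441 per kilobase, beside Dhrs3 at 6.19 ± 1.54, and these ranges overlapped. Overlap in S1S3 was also found between Rara and Rdh11, Rarg and Crabp2, and Crabp2 and Rdh10.

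As a description of the fit across all genes, 2 of the 10 members passed an adjusted p of 0.05 (limma, Benjamini-Hochberg over 11947 genes), Adh1 and Adh5, both lower, where 13.6% of all tested genes passed, 4.96% lower and 8.62% higher in S1S3. The groups did not overlap for 5 members, 3 lower (Adh1, Adh5 and Crabp2) and 2 higher (Rara and Rarg), where 35.6% of all tested genes did not overlap, 16.4% lower and 19.2% higher. The median log2 difference was -0.25 over the 10 members and -0.00 over all tested genes. Since the contrast chose the members, these counts are given for completeness and nothing is read from them. The number of genes called over the whole table, 1623, was 618, 2939 and 659 without Stat3C replicates 1, 2 and 3, and 689 and 776 without S1S3 replicates 1 and 2.

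The mouse alcohol dehydrogenase genes lie side by side on chromosome 3, and 5 of them had a row. Adh7, the class IV enzyme of epithelia, was at 5.48, 0 and 1.99 normalised counts in S1S3 libraries, against 15.2, 18.1 and 15.5 in Stat3C libraries. All S1S3 values were lower than all Stat3C values, but Adh7 lay under the mean of 10 needed for a test. Adh4 stood at 23.3, 32.2 and 47.8 in S1S3 libraries, against 66.2, 47.3 and 19.4 in Stat3C libraries, and the groups overlapped. Adh6a was at 0 in all S1S3 libraries and at 0.433 to 1.94 in Stat3C libraries, within what a count of 0 allows. Adh5, described above, also lies within 500 kb of Adh1. Of the 10 tested genes there other than Adh1 and Adh5, 0 passed an adjusted p of 0.05 by limma or by edgeR on recovered reads. By DESeq2 1 (H2afz) passed, and 2 passed an unadjusted p of 0.05 by limma. The log2 differences of the 10 ran from -0.44 to 0.43.

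**Figure D3:**
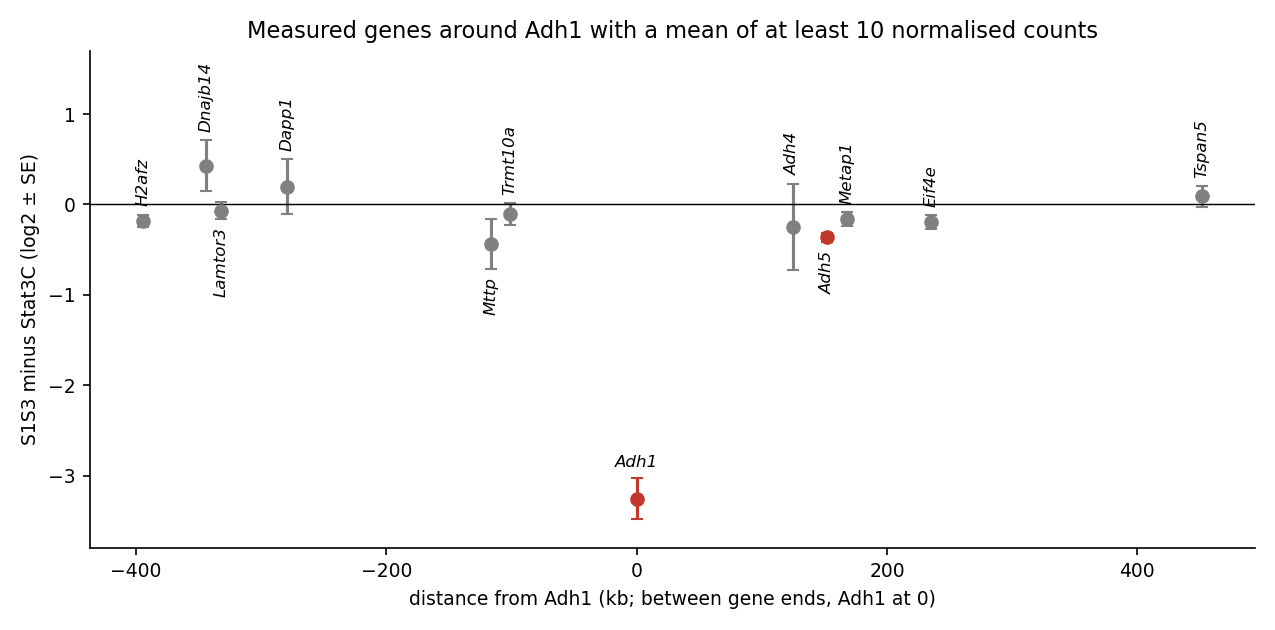
S1S3 minus Stat3C difference (log2 ± SE, vertical axis) of the 12 tested genes within 500 kb of Adh1, by distance from Adh1 in kb (horizontal axis). Adh1 at -3.26 and Adh5 at -0.37 are red, and the other genes lie between -0.44 and 0.43.

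Summed markers of other cell types did not all move with Adh1. The B cell, CD8 and fibroblast sums were lower in S1S3, the myeloid sum overlapped, and the NK cell sum was higher. The fibroblast sum was mostly Lum, and the NK cell sum in S1S3 was mostly Eomes, so these 2 sums stand for single genes. A B cell list of 6 genes summed to 32.2 to 63.0 normalised counts in S1S3, against 134 to 381 in Stat3C, and 2 of its 5 tested genes fell, where 4.96% of all tested genes fell. Ms4a1, which encodes CD20, was at 0 in all S1S3 libraries and at 8.56 to 24.2 in Stat3C libraries. The 2 CD8 genes Cd8a and Cd8b1, summed, gave 111 to 159 in S1S3, against 277 to 453 in Stat3C, and both fell. A myeloid and dendritic cell list of 8 genes gave 21.9 to 47.8 in S1S3, against 55.0, 208 and 37.8 in Stat3C replicates 1, 2 and 3, with overlap. Itgax, at 33.8, made up most of the 47.8 in S1S3 replicate 3, and it alone had the higher mean in S1S3. Cd14 (2.74 to 3.22 in S1S3, against 9.69 to 40.3 in Stat3C) and Flt3 (0 to 2.15, against 8.66 to 11.6) did not overlap. The other genes of the list overlapped. Of its 3 tested genes 0 passed the adjusted p by limma or edgeR, 1 (Cd14) passed by DESeq2, and 1 passed an unadjusted p of 0.05 by limma. Within Stat3C, Adh1 was highest in replicate 2 and lowest in replicate 3, and the myeloid sum ran in the same order, whereas the B cell and CD8 sums were lowest in replicate 2 and highest in replicate 3. Adh1 ran only from 133 to 171 there, against 37.8 to 208 for the myeloid sum. An order over 3 libraries is too little to read a link from. In these bulk samples fewer cells that express Adh1 and less Adh1 RNA per cell cannot be told apart, and the part of other cell types in the Adh1 difference was not tested.

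The T cell list (Cd3e, Cd3d, Cd3g, Cd4, Cd2, Cd5 and Lck) summed to 71732 to 77039 in S1S3, against 53460 to 59281 in Stat3C, and 5 of its 7 genes rose. Among all tested genes 8.62% rose and 4.96% fell. The Th17 list summed to 5069 to 6483 in S1S3, against 15505 to 20307 in Stat3C, and 3 of its 7 genes fell, Il17a and Il17f among them. An NK cell list held 1 tested gene of 6, Eomes, which rose and made up most of the sum in S1S3. The other genes of the list did not exceed 9.95 in any library, and Klra4 was at 0 throughout. A fibroblast list of 6 genes summed to 2354 to 3205 in S1S3, against 5208 to 6281 in Stat3C, of which Lum, which fell, made up most, and Col1a1 rose.

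**Figure D4:**
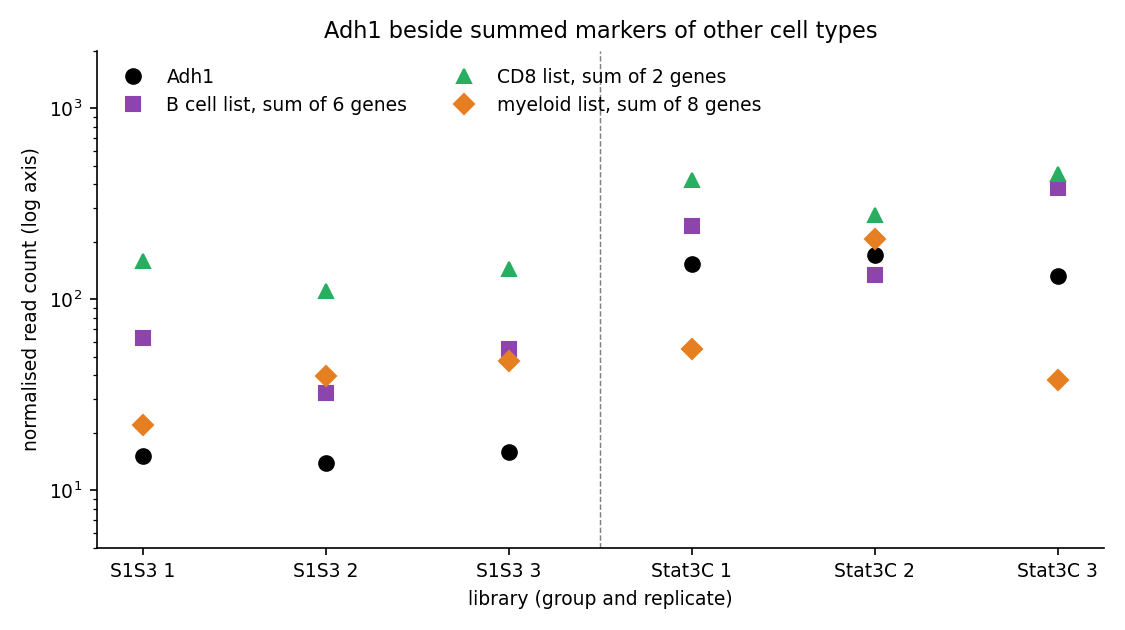
Normalised read count on a log axis (vertical) of Adh1 and of the summed B cell, CD8 and myeloid lists in each library (horizontal axis), S1S3 to the left of the dashed line. Adh1, the B cell sum and the CD8 sum are lower in all S1S3 libraries, and in Stat3C replicate 2 Adh1 and the myeloid sum are at their highest while the B cell and CD8 sums are at their Stat3C lowest.

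The 5 genes whose centred log2 values over the 6 libraries lay nearest to those of Adh1, by Euclidean distance, were Il17a, Mpeg1, Spib, Tnfrsf13c and Lipg, at distances from 0.90 (Il17a) to 1.55 (Lipg). Il17a encodes the signature cytokine of Th17 cells, at 586, 409 and 442 normalised counts in S1S3 libraries, against 2593, 3413 and 3919 in Stat3C libraries. Mpeg1 encodes a pore-forming protein of phagocytes, and it stood at 2.74, 7.52 and 4.98 in S1S3 libraries, against 37.2, 50.9 and 26.2 in Stat3C libraries. Spib, a transcription factor of B cells, and Tnfrsf13c, the BAFF receptor of B cells, averaged 1.15 ± 0.197 and 7.93 ± 3.43 in S1S3, against 26.1 ± 11.4 and 98.0 ± 43.9 in Stat3C. Lipg, which encodes endothelial lipase, averaged 62.8 ± 18.1 in S1S3, against 287 ± 41.4 in Stat3C. All 5 were lower in every S1S3 library, which follows largely from picking them by closeness to Adh1 and is no separate result. Within Stat3C, Mpeg1 was ordered like Adh1 and the myeloid sum, highest in replicate 2 and lowest in replicate 3. Il17a, Spib, Tnfrsf13c and Lipg were not ordered like Adh1 there, and an order over 3 libraries is too little to read a link from.

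Beyond the members, most of the retinoid pathway was low or not detected. Of 45 further pathway genes with a row, 29 had a mean under 10, 11 of these at 0 in every library, and 16 were tested. Of these, 1 rose, 1 fell and 14 did not pass, where 13.6% of all tested genes passed, and the median log2 difference was 0.25. Dhrs7, a short-chain dehydrogenase, rose to 426 ± 15.1 in S1S3, against 294 ± 23.4 in Stat3C (log2 0.54, SE 0.10, limma adjusted p = 0.0120). Scarb1, a lipoprotein receptor that also takes up carotenoids, fell to 1677 ± 121 in S1S3, against 2248 ± 94.8 in Stat3C (log2 -0.42, SE 0.07, limma adjusted p = 0.00796). The count of 2 was 1 without S1S3 replicate 2 and 4 without Stat3C replicate 2. In the latter case calls over the whole table rose too, from 1623 to 2939.

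Genes of retinoic acid production and removal were low. Aldh1a2 and Aldh1a3, retinal dehydrogenases, did not exceed 1.51 normalised counts in any library. Aldh1a1, the third of them, was at 6.85, 0 and 0 in S1S3 libraries, against 1.73, 190 and 0 in Stat3C libraries, so that a single library held nearly all of it. That library, Stat3C replicate 2, was the one with the high myeloid sum of 208. Col1a2 of the fibroblast list (2.60, 105 and 0 in Stat3C libraries) and Meis1 (2.16, 95.2 and 1.94) were also highest there. The part of myeloid or other cells in the Aldh1a1 value was not tested. Cyp26b1, which degrades retinoic acid, stood at 19.2, 14.0 and 1.99 in S1S3 libraries, against 46.3, 23.2 and 27.1 in Stat3C libraries. Its groups did not overlap, but it did not pass the test (log2 -1.72, SE 0.73, limma adjusted p = 0.154). Stra6, the membrane receptor for retinol-binding protein, stood at 482, 467 and 691 in S1S3 libraries, against 443, 191 and 611 in Stat3C libraries, with overlap (log2 0.53, SE 0.38, limma adjusted p = 0.380).

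Of 17 tested genes of other alcohol, aldehyde and aldo-keto enzymes, 2 rose and 15 did not pass, beside 13.6% passing among all tested genes, at a median log2 difference of -0.06. Akr1b8, an aldo-keto reductase, rose to 294 ± 17.0 in S1S3, against 159 ± 19.2 in Stat3C (log2 0.89, SE 0.13, limma adjusted p = 0.00512), and Aldh3a2, a fatty aldehyde dehydrogenase, rose to 591 ± 9.03 in S1S3, against 414 ± 67.5 in Stat3C. Without S1S3 replicate 1, or without Stat3C replicate 1 or 3, the count was 1. Esd, which completes the formaldehyde pathway that Adh5 begins, stood at 2057, 2241 and 2315 in S1S3 libraries, against 2367, 2672 and 2545 in Stat3C libraries, and did not pass (log2 -0.20, SE 0.07, limma adjusted p = 0.0986).

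Of 19 tested coregulators of RAR and RXR, 2 rose, 1 fell and 16 did not pass, beside 13.6% passing among all tested genes, at a median log2 difference of 0.13. The coactivator genes Ncoa1 (1508 ± 140 in S1S3, against 1014 ± 109 in Stat3C, log2 0.57, limma adjusted p = 0.00988) and Ncoa3 (5408 ± 570 in S1S3, against 4061 ± 238 in Stat3C, log2 0.41, limma adjusted p = 0.0162) rose. Kat2a, a histone acetyltransferase gene, fell to 1641 ± 93.3 in S1S3, against 2006 ± 88.7 in Stat3C (log2 -0.29). The corepressor gene Ncor1 (6243 ± 62.9 in S1S3, against 5828 ± 398 in Stat3C) did not pass. The count of 3 was 1 without Stat3C replicate 1 or 3 and 9 without Stat3C replicate 2. Without Stat3C replicate 2, calls over the whole table rose too, from 1623 to 2939.

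Of 8 tested nuclear receptors that also pair with RXR, 1 rose, 2 fell and 5 did not pass, beside 13.6% passing among all tested genes, at a median log2 difference of -0.00. Pparg, a receptor for fatty acids, rose to 86.3, 93.4 and 37.8 normalised counts in S1S3 libraries, against 16.0, 15.6 and 18.4 in Stat3C libraries (log2 1.96, SE 0.38, limma adjusted p = 0.0156). Nr4a1, an early response gene of T cell receptor signalling, fell to 1342 ± 101 in S1S3, against 2833 ± 196 in Stat3C (log2 -1.08, SE 0.08, limma adjusted p = 0.000459), and Nr4a2 fell to 225 ± 41.9 in S1S3, against 332 ± 25.7 in Stat3C. Vdr, the vitamin D receptor, stood at 178, 99.9 and 73.6 in S1S3 libraries, against 50.7, 71.5 and 57.2 in Stat3C libraries, and did not pass (log2 0.88, SE 0.32, limma adjusted p = 0.112); like Rarg, it was highest in S1S3 replicate 1. The count of 3 was 1 without S1S3 replicate 1 or 2 and 1 without Stat3C replicate 1.

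Of 11 tested genes reported elsewhere to be induced by retinoic acid, 2 rose and 9 did not pass, beside 13.6% passing among all tested genes, at a median log2 difference of 0.66. Cyp26b1, also on this list, was lower in every S1S3 library (log2 -1.72, SE 0.73) but did not pass. Meis1 had a negative difference with a wide error (log2 -0.69, SE 1.38), and the other tested genes of the list had positive ones. Foxp3, the lineage factor of regulatory T cells, rose to 2409, 2152 and 2722 in S1S3 libraries, against 1139, 1352 and 1365 in Stat3C libraries (log2 0.91, SE 0.10, limma adjusted p = 0.00209). Asb2, a subunit of a ubiquitin ligase first described as a target of retinoic acid in leukaemia cells, rose to 2746, 1888 and 2069 in S1S3 libraries, against 530, 831 and 567 in Stat3C libraries (log2 1.81, SE 0.19, limma adjusted p = 0.00165). Itga4 and Itgb7, the chains of the gut-homing integrin, did not pass: Itga4 stood at 2320, 1220 and 1407 in S1S3 libraries, against 511, 1683 and 490 in Stat3C libraries, and Itgb7 at 3934, 3612 and 2780 in S1S3 libraries, against 2217, 3306 and 2331 in Stat3C libraries. In both, Stat3C replicate 2 lay within the S1S3 values. Without that library 7 of the 10 genes of the list then tested rose, adding Itga4, Itgb7, Tgm2, Hic1 and Rai14 to the 2. Calls over the whole table rose as well, from 1623 to 2939 (of 11799 then tested), 1727 of them higher in S1S3. Ccr9, the other gut-homing gene, was at 6.85, 5.37 and 10.9 in S1S3 libraries, against 2.60, 0.504 and 0 in Stat3C libraries, too low for a test.

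**Figure D5:**
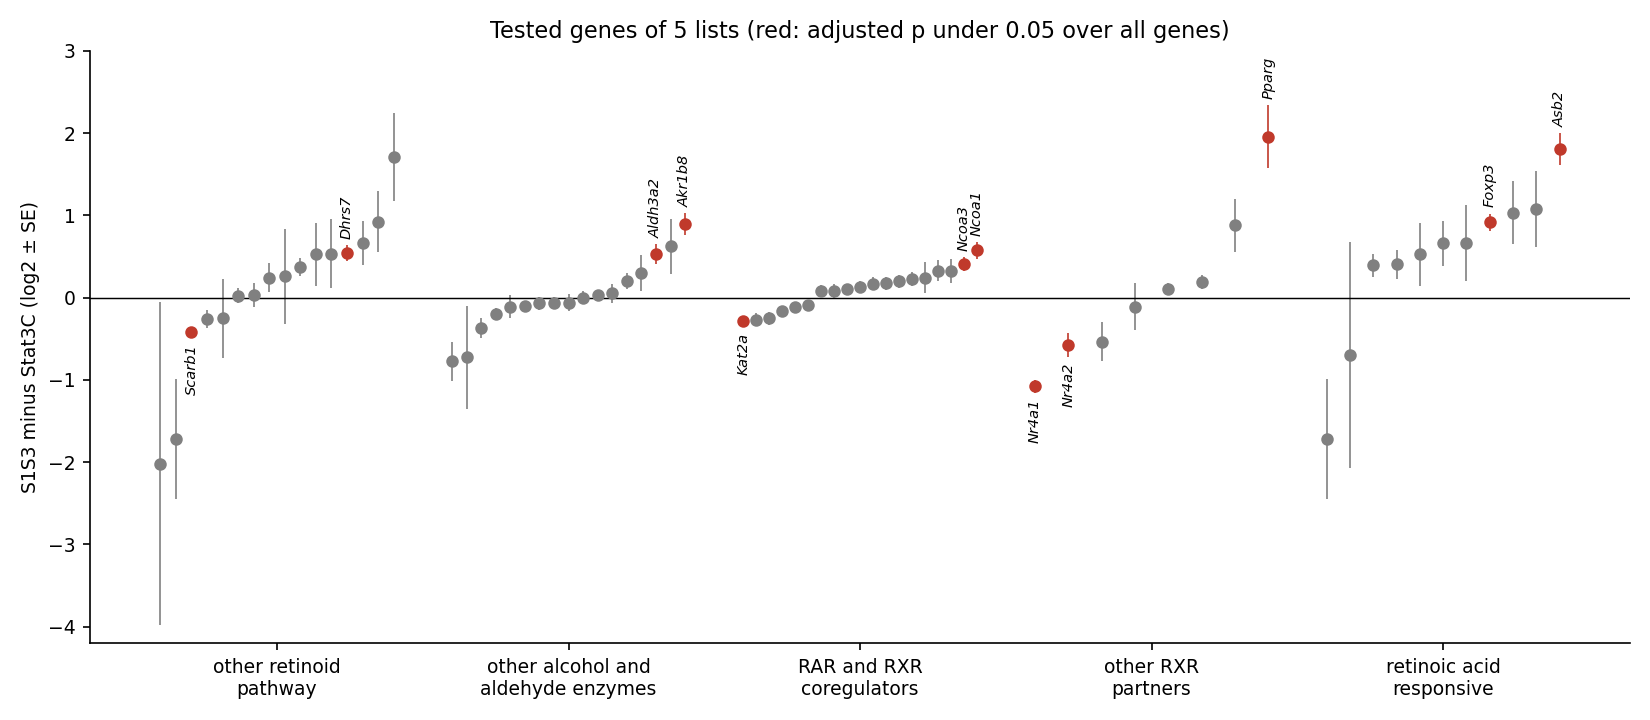
S1S3 minus Stat3C difference (log2 ± SE, vertical axis) of each tested gene in 5 lists (horizontal axis), in red and named where the limma adjusted p was under 0.05. The red genes number 2, 2, 3, 3 and 2 from left to right, and most genes of each list are grey.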

How the data were processed

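RNA (100 ng per library, 6 libraries) was made into stranded poly(A) libraries, per the labels' protocols. The build mm10 and, with no role stated, HTSeq 0.11.1, TopHat2 2.1.1 and DESeq2 1.22.2 stand in the submitters' processing notes; which gene models, strand setting and filters were used is not given in the sources. The deposited signal is a count per gene scaled by the authors with library size factors: 100% of values above 0 were whole multiples, within 0.01, of 1 step per column (0.433 to 1.37). Of 23420 rows, 27 whose names had become dates (at most 0.217% of reads) were left out.

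The fit was limma 3.58.1 (R 4.3.3) on log2(value + 1) with a trended variance, tested two-sided across all genes with a mean of at least 10, adjusted over all of them; replicates were numbered in accession order and the labels give no batch. edgeR 4.0.16 and DESeq2 1.42.0 ran on recovered reads as alternatives. The steps were tested on simulated data. Exon lengths and positions come from GENCODE M21 (GRCm38). Start windows come from RefSeq starts and were at hand for 8 of the 10 members, not for Rdh10 and Crabp2. The members and lists were chosen with earlier results of these data known. Beside the members and Stim1, genes were named as up to 4 per list past the threshold by adjusted p, or up to 2 by mean, and the 5 nearest to Adh1; Adh4, Adh6a, Adh7, Aldh1a1, Aldh1a2, Aldh1a3, Ccr9, Cyp26b1, Esd, Gm16559, H2afz, Cd14, Itga4, Itgb7, Ms4a1, Ncor1, Rarb, Rxrg, Stra6, Vdr and genes named to complete a count were chosen after their values were seen.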

Additional observations from a re-analysis of the deposited data

How the results depend on the processing

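No paired analysis was possible because the labels give the libraries no shared replicate numbers. Of 139 recomputed log2 differences of the 10 members over 14 alternative settings, 137 kept their sign and moved by less than the SD between replicates. The exceptions were Adh1, which moved further, to -2.97 with a pseudocount of 5, and Rxra, which moved by less than its SD but changed sign, to -0.0589 without Stat3C replicate 2 and ranged up to 0.2968 with another library left out. Leaving out 1 of the 3 libraries of a group cannot move a difference by as much as that SD. The filter and the variance trend leave the difference itself unchanged. For these settings the size limit was therefore met in advance. Rarg counts as kept although it went from 0.57 to 0.21 without S1S3 replicate 1. Without a variance trend limma called 827 genes over the whole table, 4 further retinoid pathway genes, 1 coregulator and 1 aldehyde enzyme gene. DESeq2 on recovered reads called 5 coregulators. With 1 library left out, the calls ranged from 618 to 2939 over the whole table, 1 to 4 for further retinoid pathway genes, 1 to 9 for coregulators, 1 to 3 for RXR partners, 2 to 7 for retinoic acid responsive genes and 1 to 3 for aldehyde enzymes. The causes were not tested. Depth limits Adh1 and Dhrs3 most, with 11 to 17 reads per S1S3 library.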
